A study of Homo sapiens with 2 samples.

Results

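Fibrinogen and coagulation genes were examined in A549 cells, a human lung adenocarcinoma line, that carried either the LV5 lentiviral control vector or LV5 with ZNF300, which encodes a zinc finger protein reported to act as a transcriptional regulator. The 10 genes were FGA, FGB, FGG, F3, F5, TFPI, TFPI2, SERPINA1, PROS1 and THBD, out of 19775 genes with a probe set of their own on the Affymetrix Human U133 Plus 2.0 array. All probe sets annotated to exactly 1 of these genes were taken, which gave 25 probe sets of 41097. There were 2 arrays, A549-LV5 (named A549-ZNF300-NC in the study) and A549-ZNF300, so each condition had 1 array. No difference below therefore has a replicate check, no p-value was computed, and 2-fold is a size and not a test.

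Both vectors also carried green fluorescent protein and puromycin resistance, the control vector held a random DNA sequence, and ZNF300 was the coding sequence of transcript variant 1. Whether the cells came from 1 clone was not stated in the sources used here. The ZNF300 probe set had a log2 signal of 4.16 in A549-LV5 and 8.91 in A549-ZNF300, and whether it lies in the sequence that the vector carries was not tested. Signals are log2 values as deposited, with array medians of 6.14 in A549-LV5 and 6.03 in A549-ZNF300. A probe set was taken as detected where its signal reached the array median in either array. Ratios are A549-ZNF300 over A549-LV5. A signal below the median lies among those of transcripts that may be absent, so ratios are also given with such a signal raised to the median of its array. A deposited table held detection calls (present, marginal or absent) for 8187 probe sets, all at least 2-fold apart. None of these was called absent in both arrays. So a probe set called absent in A549-LV5 could be in it only with another call in A549-ZNF300. Of the 25 probe sets 16 were in it.

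Blood clots when tissue factor, a membrane protein kept away from plasma, binds factor VII and starts a protease cascade that ends in thrombin, and thrombin converts fibrinogen to fibrin. Fibrinogen is a secreted protein of paired Aα, Bβ and γ chains, made mainly by the liver and raised in the acute phase response. Factor V speeds thrombin formation, while tissue factor pathway inhibitor, protein S, thrombomodulin and antithrombin restrain it. Lung epithelial cells are known to make fibrinogen when they are inflamed, and tumour cells often display tissue factor.

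The 3 fibrinogen chain genes were higher in A549-ZNF300, together with F5 and THBD, while F3, TFPI and PROS1 were lower. Each gene was represented by its detected probe set with the highest mean signal. Of the 10 genes, 9 were detected, of which 5 were higher by 2-fold or more, 3 lower by 2-fold or more and 1 under 2-fold apart. Among all 13221 detected genes the same sizes were reached upwards by 13.6% and downwards by 15.4%, or 29.0% in both directions. The median log2 ratio was 2.38 over the 9 genes and -0.06 over all detected genes. FGA, FGG and F5 counted as detected through the A549-ZNF300 array alone, where they were high, so neither the count nor the median is evidence of an upward balance. Where a signal had to reach the array median in both arrays, 6 members were left, 2 higher and 3 lower by 2-fold or more, and their median log2 ratio turned to -0.19, beside -0.07 over all 11192 such genes. When dim signals were set to the array median, 4 of the 9 were at least 2-fold higher and 3 lower, against 10.3% and 12.1% of all detected genes, and F5 was the gene that left the count. These numbers describe 2 arrays and a list of 10 chosen genes, and nothing particular to the list is drawn from them.

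**Figure D1:**
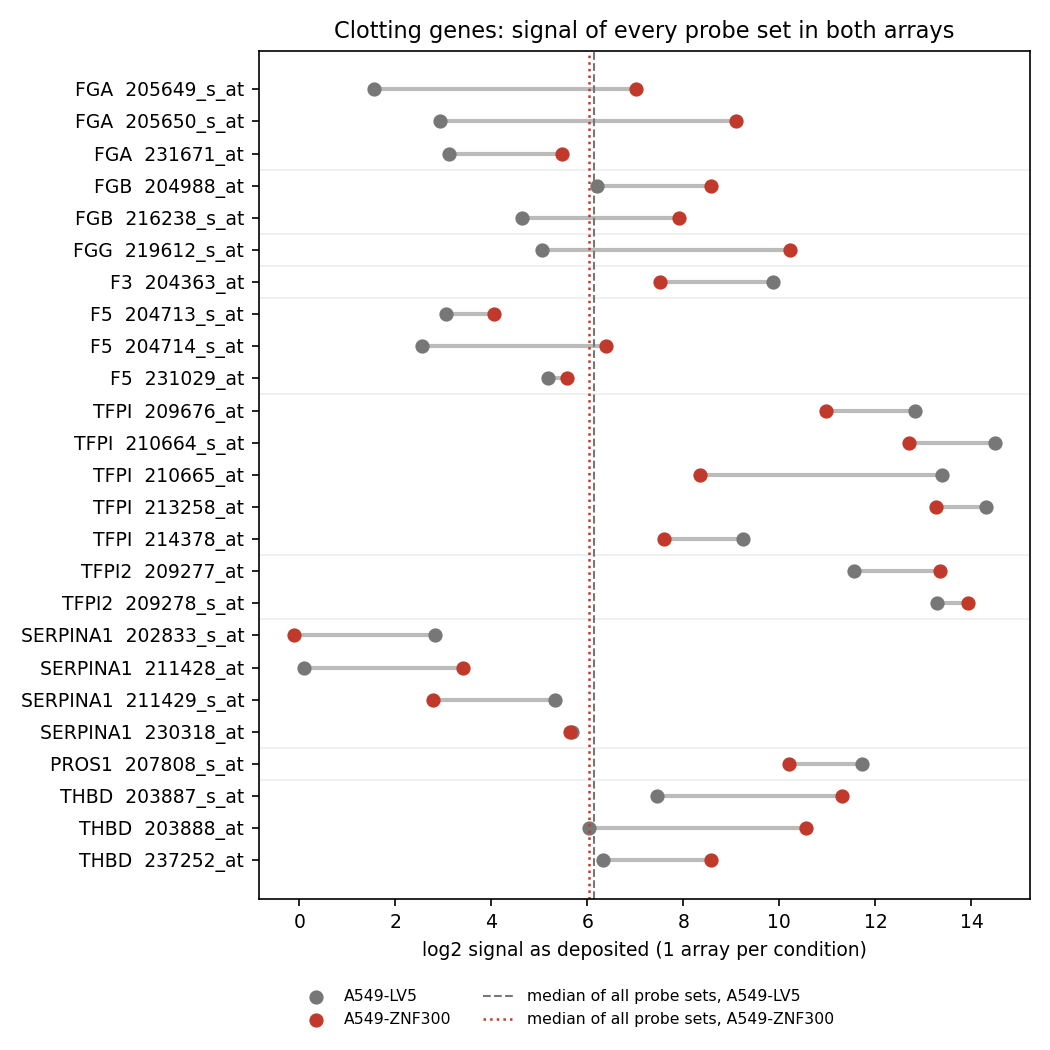
Log2 signal (x axis) of each of the 25 probe sets of the 10 genes in A549-LV5 (grey) and A549-ZNF300 (red), 1 array each, with the median of all probe sets of each array as a vertical line. The fibrinogen probe sets lie near or below the median in A549-LV5 and mostly above it in A549-ZNF300, all TFPI probe sets are lower in A549-ZNF300, and all SERPINA1 probe sets stay below both medians.

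FGA, which encodes the Aα chain, had 3 probe sets. Probe set 205650_s_at had a log2 signal of 2.94 in A549-LV5, where it was called absent, and 9.11 in A549-ZNF300, where it was called present. Its log2 ratio was 6.16. Probe set 205649_s_at had 1.56 and 7.02, a log2 ratio of 5.45, with the same calls. The third, 231671_at, stayed below the array median in both (3.12 and 5.47). FGA was thus dim in the control array on all probe sets, and the size of its ratio depends on signals near background. With the dim signal raised to the array median, the log2 ratios of 205650_s_at and 205649_s_at were 2.96 and 0.87, so only the former was at least 2-fold apart on that scale.

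FGB, which encodes the Bβ chain, had a log2 signal of 6.20 in A549-LV5 and 8.58 in A549-ZNF300 on 204988_at, a 5.20-fold difference. It was the fibrinogen probe set that reached the median of both arrays, and it was nonetheless called absent in A549-LV5. On 216238_s_at the signals were 4.64 and 7.91, a log2 ratio of 3.27, or 1.77 with the dim signal raised. Both FGB probe sets were higher in A549-ZNF300 and at least 2-fold apart on either scale.

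FGG, which encodes the γ chain, had 1 probe set, with a log2 signal of 5.05 in A549-LV5, called absent, and 10.22 in A549-ZNF300, called present. Its log2 ratio was 5.17, or 4.08 with the dim signal raised to the array median, which is 16.9-fold. All 6 probe sets of the fibrinogen chains thus were higher in A549-ZNF300, and 5 of them were detected. The chains assemble only together, and the arrays measured RNA and not the secreted protein.

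**Figure D2:**
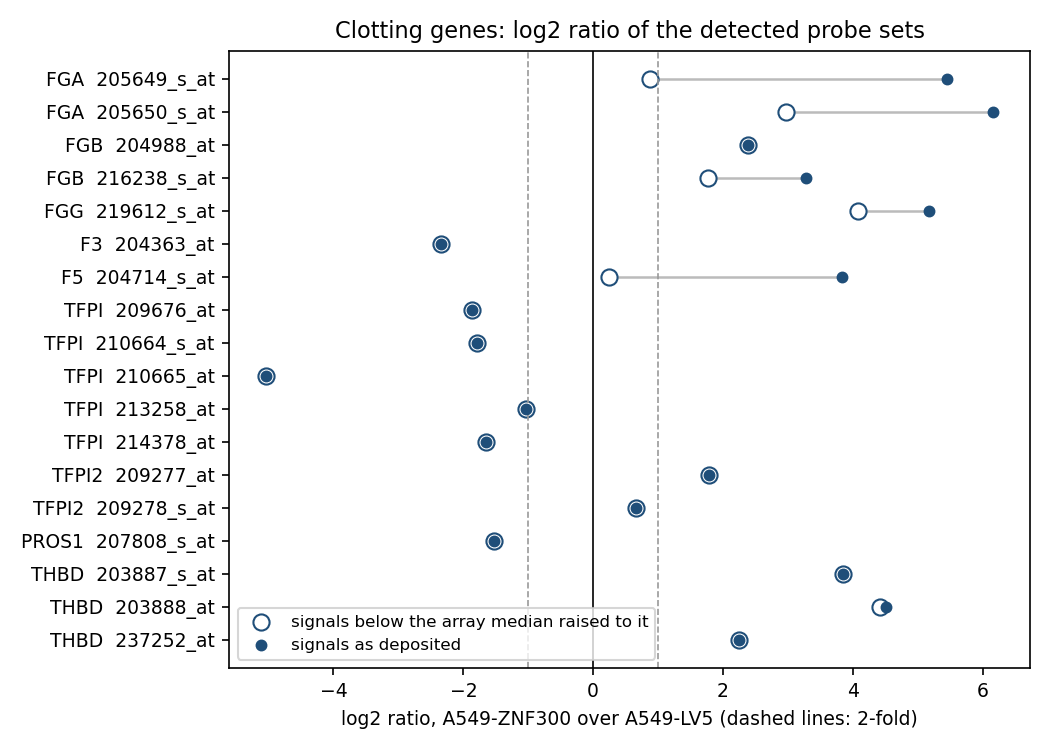
Log2 ratio of A549-ZNF300 over A549-LV5 (x axis) for the 18 detected probe sets, from the deposited signals (filled points) and after setting any lower signal to the array median (open points), dashed lines marking 2-fold. Raising dim signals shortens the ratios of FGA, FGG, F5 and one FGB probe set, brings F5 to 0.24, and leaves F3, TFPI, TFPI2 and PROS1 where they were.

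The fibrinogen genes lie side by side on chromosome 4 in the order FGB, FGA, FGG, so the genes around them were also read. Of the 10 nearest genes with a probe set of their own, 8 were not detected. PLRG1, next to FGB, encodes a splicing factor and had log2 signals of 11.46 and 11.25, a log2 ratio of -0.21. MAP9, a microtubule-associated protein gene on the FGG side, had a log2 ratio of -0.23 from 10.68 and 10.45. The detected genes on both sides were thus under 2-fold apart, and the median log2 ratio of all 493 detected genes of chromosome 4 was -0.02.

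The promoters of the fibrinogen genes are shown because the 3 genes moved together and because IL-6 signalling and C/EBP factors, known to act on them, were measured too. Each is the 250 bases before the RefSeq start (build GRCh38.p14), 5′ to 3′, with capitals for motifs searched on both strands. They are the core of the IL-6 response element of acute phase genes (CTGGGA) and a C/EBP motif (TTGCNNAA), and no marked motif overlaps another.
FGA (chr4:154590743-154590992, minus strand): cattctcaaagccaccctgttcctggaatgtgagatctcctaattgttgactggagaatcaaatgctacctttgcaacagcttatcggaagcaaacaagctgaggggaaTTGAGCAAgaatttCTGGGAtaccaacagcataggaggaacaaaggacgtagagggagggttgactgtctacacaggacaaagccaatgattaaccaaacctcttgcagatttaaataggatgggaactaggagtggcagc
FGB (chr4:154562730-154562979, plus strand): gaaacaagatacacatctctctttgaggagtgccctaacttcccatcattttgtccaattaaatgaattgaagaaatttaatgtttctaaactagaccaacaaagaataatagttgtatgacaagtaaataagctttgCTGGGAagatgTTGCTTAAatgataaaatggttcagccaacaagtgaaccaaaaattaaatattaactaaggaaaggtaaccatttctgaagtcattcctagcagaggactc
FGG (chr4:154612657-154612906, minus strand): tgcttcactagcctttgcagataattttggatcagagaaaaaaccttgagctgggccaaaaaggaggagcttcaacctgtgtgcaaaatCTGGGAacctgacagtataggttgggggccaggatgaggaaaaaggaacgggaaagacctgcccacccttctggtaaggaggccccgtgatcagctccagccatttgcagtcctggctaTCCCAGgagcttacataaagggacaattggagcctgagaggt
CTGGGA was in all 3 windows, at base -127 in FGA, -112 in FGB and -161 in FGG, counted back from the start, with another on the opposite strand at -42 in FGG. It occurs in 28.7% of 35116 promoter windows of this length. Of the 11 windows of the listed genes 7 held it, counting separately the overlapping windows of FGB, which share the same copy. Among the 7 were those of F5, SERPINA1 and PROS1, which was lower in A549-ZNF300. The C/EBP motif stood at -101 in FGB and, on the opposite strand, at -141 in FGA, was not found in the FGG window, and 9.05% of all windows hold it. The FOXA motif TGTTTAC, found in 2.98% of all windows, was not in these letters for any of the 3, but was in the PROS1 window. A match describes the letters and is not a measured binding site.

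THBD encodes thrombomodulin, the membrane receptor that turns thrombin from a clotting enzyme into an activator of protein C. Its 3 probe sets were all higher in A549-ZNF300. On 203887_s_at the log2 signal was 7.45 in A549-LV5 and 11.30 in A549-ZNF300, a 14.5-fold difference with present calls in both arrays. The other probe sets, 203888_at (6.04 and 10.56) and 237252_at (6.32 and 8.57), gave log2 ratios of 4.51 and 2.24 and were called absent in A549-LV5. Raising dim signals to the array median moved 203888_at alone, to 4.41, since the others lay above the median in both arrays.

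On chromosome 20, the nearest detected genes on one side of THBD were FOXA2 and LINC00261. LINC00261 was named after its values were seen. FOXA2, a forkhead factor of endoderm, liver and lung, had log2 signals of 6.59 and 10.31 on 40284_at, a log2 ratio of 3.73. On 210103_s_at the ratio was 4.07, and 214312_at was below the array median in both arrays. LINC00261, a long noncoding RNA gene beside FOXA2, reached a log2 signal of 6.92 in A549-ZNF300 and was far dimmer in A549-LV5, and its log2 ratio was 0.78 with the dim signal raised. SSTR4, between FOXA2 and THBD, and CD93, on the other side of THBD, were not detected, and NXT1 had a log2 ratio of 0.33. Over the 5 genes on either side of each of the 10 genes, 80 in all, 44 were detected, of which 7 were higher and 8 lower by 2-fold or more. Their median log2 ratio was -0.11. Among all detected genes 13.6% were higher and 15.4% lower by 2-fold or more.

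**Figure D3:**
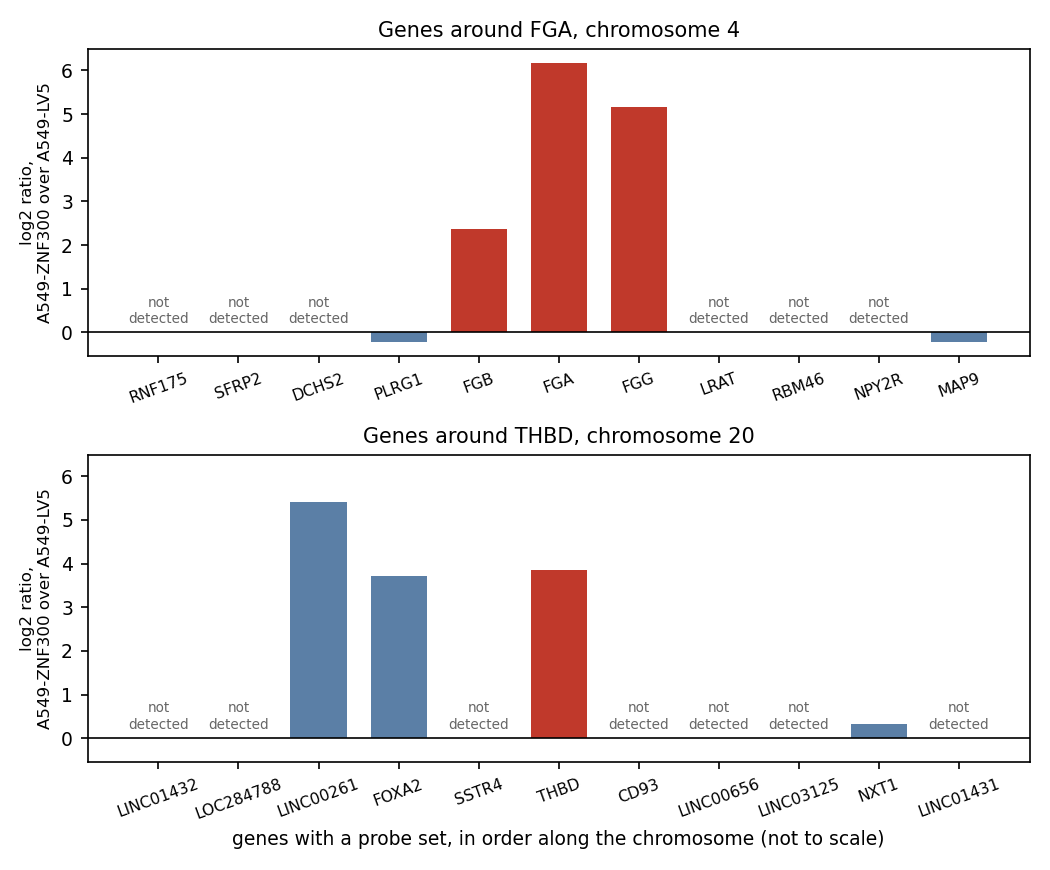
Log2 ratio of A549-ZNF300 over A549-LV5 (y axis) for the 5 genes with a probe set on either side of FGA and of THBD, in chromosome order and not to scale, with FGA, FGB, FGG and THBD in red. The 3 fibrinogen genes stand between PLRG1 (-0.21) and undetected genes, while FOXA2 (3.73) and LINC00261 (5.41, dim in A549-LV5) are high near THBD.

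F3 encodes tissue factor, the trigger of the clotting cascade. Its probe set had a log2 signal of 9.86 in A549-LV5, called present, and 7.52 in A549-ZNF300, called marginal, a 5.07-fold difference. Both signals lay above the array medians. F3 is known as an early response gene, and its 250 bases before the start are shown for the AP-1 motif (TGANTCA) and the EGR1 motif (GCGGGGGCG), in capitals and not overlapping.
F3 (chr1:94541760-94542009, minus strand): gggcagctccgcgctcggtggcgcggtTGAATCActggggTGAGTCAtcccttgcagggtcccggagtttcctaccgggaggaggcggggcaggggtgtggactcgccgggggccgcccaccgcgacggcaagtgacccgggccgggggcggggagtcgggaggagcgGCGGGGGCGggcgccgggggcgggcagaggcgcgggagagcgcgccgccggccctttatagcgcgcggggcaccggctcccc
The AP-1 motif was at -223 and -210 and the EGR1 motif at -82, and 6.57% and 4.72% of all promoter windows hold them. EGR1 itself, an immediate early transcription factor, had log2 signals of 12.76 and 10.54, a log2 ratio of -2.22. The promoter window of TFPI2, which was higher in A549-ZNF300, also held an AP-1 motif, at -87, and an EGR1 motif, at -118. Whether EGR1 or AP-1 acts on either gene here was not tested. The nearest detected genes on chromosome 1 were ABCD3, with a log2 ratio of 0.88, and SLC44A3, with -0.50. Of the 10 nearest genes 8 were detected, 6 of them under 2-fold apart. GCLM was higher, with a log2 ratio of 1.04, and ARHGAP29 was lower like F3, with log2 signals of 12.83 and 11.03.

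TFPI, which encodes the inhibitor of the tissue factor and factor VII complex, was bright in both arrays. All 5 probe sets were lower in A549-ZNF300 and called present in both. On 213258_at, the one with the highest mean, the log2 signal was 14.31 in A549-LV5 and 13.27 in A549-ZNF300. Its log2 ratio of -1.04 is close to 2-fold and became -0.93 after centring each array on its median. The probe sets 209676_at, 210664_s_at and 214378_at gave log2 ratios of -1.86, -1.78 and -1.66. The fifth, 210665_at, had 13.38 and 8.34, which is 32.9-fold lower, although it is annotated to the same sequence record as 210664_s_at. The 5 log2 ratios thus had one sign and ran from -5.04 to -1.04, and which transcripts each probe set reads was not tested.

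TFPI2, a related Kunitz-type protease inhibitor of the extracellular matrix, went the other way. On 209278_s_at the log2 signal was 13.28 in A549-LV5 and 13.93 in A549-ZNF300, so the log2 ratio was 0.65, under 2-fold. On 209277_at it was 11.56 and 13.35, a log2 ratio of 1.79, with present calls in both arrays. Both probe sets were higher in A549-ZNF300, but whether TFPI2 passed 2-fold depended on the probe set. Of its 10 nearest genes 6 were detected and 4 of these were under 2-fold apart. GNG11, a G protein subunit gene, had a log2 ratio of 1.92, and SAMD9L, on the other side of TFPI2, one of -1.92.

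PROS1 encodes protein S, a vitamin K-dependent cofactor of activated protein C and of tissue factor pathway inhibitor. Its probe set had a log2 signal of 11.73 in A549-LV5 and 10.20 in A549-ZNF300, a 2.87-fold difference with present calls in both. PROS1, F3 and TFPI were the genes lower in A549-ZNF300, and all of them lay above the array medians in both arrays. A starter of clotting and inhibitors of it were thus lower side by side.

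F5, which encodes factor V, and SERPINA1, which encodes the protease inhibitor α1-antitrypsin, were dim. F5 had a log2 ratio of 3.83 on 204714_s_at, but from signals of 2.56 and 6.39, and against the array median the log2 ratio was 0.24. Its other probe sets lay below the median in both arrays. No probe set of F5 was in the table of calls, which held none called absent in both arrays. Why 204714_s_at was left out of it was not stated in the sources used here. The 4 probe sets of SERPINA1 had signals between -0.12 and 5.69, all below the array medians, and their log2 ratios ran from -2.93 to 3.31. No direction was read for SERPINA1. SERPINA6 and SERPINA3, which encode the cortisol-binding globulin and α1-antichymotrypsin and lie in the same cluster on chromosome 14, were each lower, with a log2 ratio of -1.66. All 4 detected genes among the 10 nearest to SERPINA1 were lower by 2-fold or more, as were 15.4% of all detected genes.

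Among 42 other genes of clotting and fibrinolysis, 20 were detected. Of these, 5 were higher and 2 lower by 2-fold or more, 13 were under 2-fold apart, and the median log2 ratio was 0.22. With dim signals raised, 3 were higher and 2 lower. Among all detected genes 13.6% were higher and 15.4% lower by 2-fold or more, or 10.3% and 12.1% with dim signals raised. Most plasma clotting factors were not detected, among them F9, F10, F11, F13A1, F13B and VWF, and so were PROC, which encodes protein C, and SERPINC1, which encodes antithrombin. F7, the plasma partner of tissue factor, had log2 signals of 6.17 and 7.10, and F2, the prothrombin gene, 4.73 and 6.60, or a log2 ratio of 0.46 against the array median. F8, which encodes the cofactor factor VIII, had 10.62 and 9.38, a log2 ratio of -1.24. The genes for the carboxylase and the vitamin K reductase that clotting factors need, GGCX and VKORC1, had log2 ratios of 0.81 and 0.01.

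The receptors on the cell surface did not change alike. PROCR, the endothelial protein C receptor gene, which works beside thrombomodulin, had log2 signals of 11.44 and 11.24, while THBD was 14.5-fold higher. F2R, the thrombin receptor gene, had 9.84 and 10.96 on 203989_x_at, a log2 ratio of 1.12, and 7.96 and 7.74 on 1569642_at, so its probe sets differed in sign. In fibrinolysis, PLAU, which encodes urokinase, was lower, with log2 ratios of -1.90 and -2.09 on its probe sets. PLAT, which encodes tissue plasminogen activator, had 5.92 and 7.62, a log2 ratio of 1.48 with the dim signal raised. S100A10, which binds plasminogen at the cell surface with annexin A2, had a log2 ratio of 1.19, and ANXA2 one of 0.11.

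**Figure D4:**
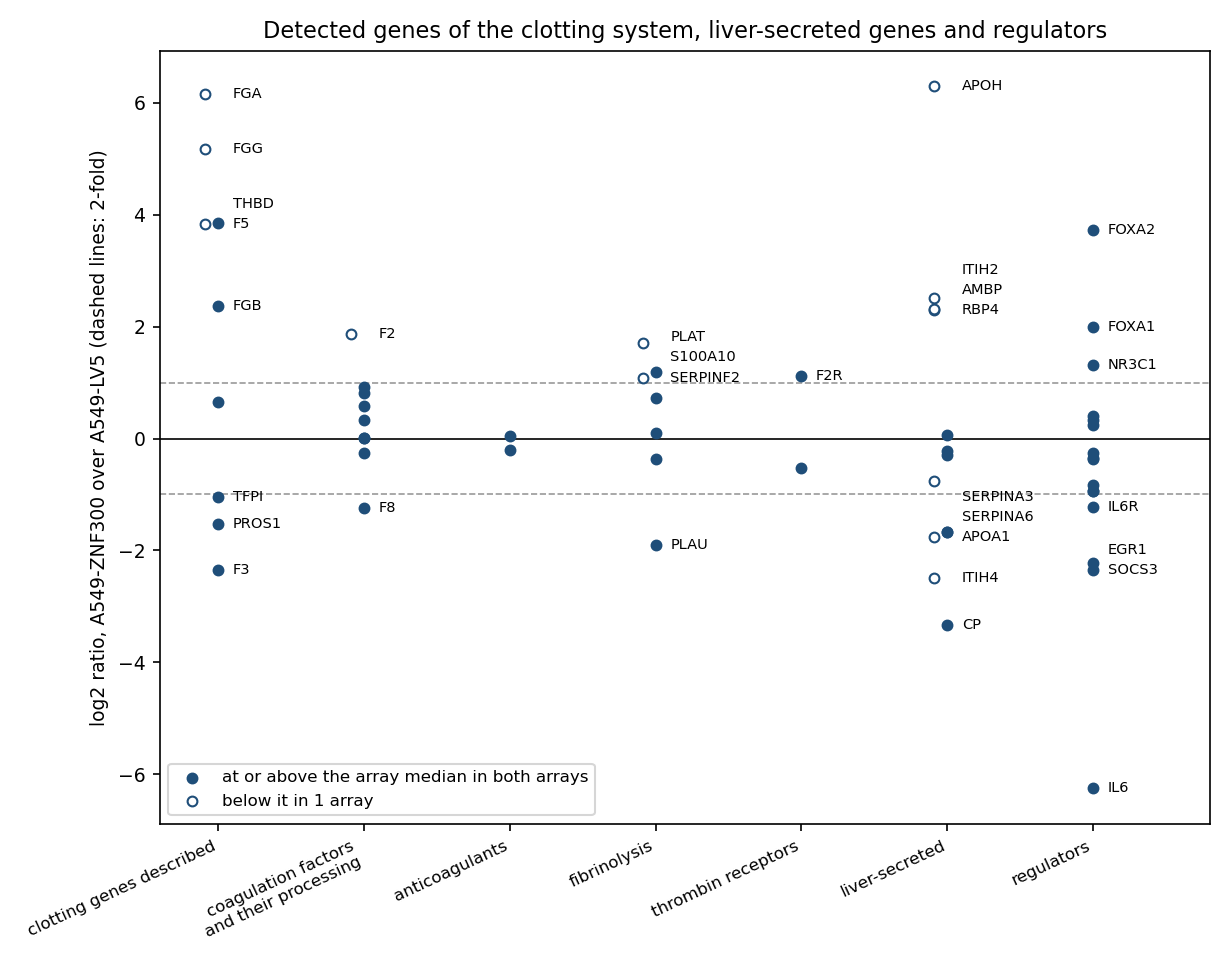
Log2 ratio of A549-ZNF300 over A549-LV5 (y axis) for each detected gene of the lists named on the x axis, 1 point a gene, filled where both signals reached the array median and open where 1 did not, with names for genes at least 2-fold apart. APOH and FGA have the highest ratios and IL6 the lowest (-6.25), and liver-secreted genes stand on both sides of 0.

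Fibrinogen belongs to the proteins that the liver secretes, and the others of this class did not share one direction. Of 31 such genes, 13 were detected, 4 of them higher and 5 lower by 2-fold or more. Their median log2 ratio was -0.30, and with dim signals raised 4 were higher and 3 lower. The shares over all detected genes were 13.6% higher and 15.4% lower, or 10.3% and 12.1% with dim signals raised. APOH, which encodes β2-glycoprotein I, a phospholipid-binding plasma protein, had log2 signals of 3.46 and 9.77, a log2 ratio of 3.62 with the dim signal raised. AMBP (2.31), ITIH2 (2.50) and RBP4 (2.30) were also higher, each from a signal below the median in A549-LV5. CP, the gene of the copper protein ceruloplasmin, had log2 signals of 11.75 and 8.41, and all 4 of its probe sets were lower in A549-ZNF300. ITIH4 had a log2 ratio of -2.49, or -0.67 with the dim signal raised. ALB, CRP, HP and APOB were not detected.

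The known regulators of fibrinogen were also read. IL6, the cytokine that drives the acute phase response, had a log2 signal of 13.91 in A549-LV5 and 7.66 in A549-ZNF300, so its log2 ratio was -6.25. Its receptor gene IL6R had a log2 ratio of -1.23, the shared receptor subunit IL6ST one of -0.37, the transcription factor STAT3 one of -0.35 and SOCS3, which IL-6 signalling induces, one of -2.35. Fibrinogen chains were thus higher in the array where IL6, IL6R and SOCS3 were lower. The liver-enriched factor FOXA1 had log2 signals of 6.22 and 8.22, beside the log2 ratio of 3.73 of FOXA2, while CEBPA, CEBPB and CEBPD had log2 ratios of -0.25, -0.83 and 0.24. NR3C1, the glucocorticoid receptor gene, had a log2 ratio of 1.32. KLF2 and KLF4, known inducers of THBD in endothelium, had log2 ratios of -0.93 and 0.40.

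Markers of cell types were read for the same arrays. All 6 epithelial markers were detected, and 5 were at least 2-fold higher in A549-ZNF300, while MUC1 had a log2 ratio of -0.07. Over all detected genes 13.6% were higher and 15.4% lower by this size, or 10.3% and 12.1% with dim signals raised. The keratin genes KRT8 (9.77 and 14.09), KRT18 (13.45 and 15.01) and KRT7 (9.46 and 14.38) were above the array median in both, while KRT19 had 2.29 and 11.08. The log2 of the summed epithelial signal was 13.68 in A549-LV5 and 16.18 in A549-ZNF300. Of 7 hepatocyte markers 5 were detected, 2 of them higher and 1 lower by 2-fold or more, or 1 and 0 with dim signals raised. CPS1, a urea cycle enzyme gene, had 7.18 and 11.64. The summed level was 8.59 and 11.75, most of it from CPS1 in A549-ZNF300. TTR and APOA1 had log2 ratios of -0.22 and -1.76, the latter -0.37 with the dim signal raised. CYP3A4 and TAT had 0.49 and 2.90, or 0.11 and 0.07 with dim signals raised. ALB and APOB were below the median on every probe set. Of 7 endothelial markers, PECAM1 was detected, with 6.77 and 7.04, and CDH5, VWF and KDR were not. Of 6 megakaryocyte and platelet markers 4 were detected, each below the median in 1 array, with summed levels of 8.22 and 7.61. Leukocyte markers were detected for 2 of 6 genes, without PTPRC. Fibroblast markers were detected for 3 of 6, and all 3 were at least 2-fold higher in A549-ZNF300, or 1 with dim signals raised. Of these, COL1A1 had 7.90 and 10.45 and the others were dim in A549-LV5. The part that these markers and the epithelial genes have in the fibrinogen and THBD results was not tested, and fewer cells of a type cannot be told apart from less RNA per cell in such bulk samples.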

How the data were processed

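Total RNA of A549-LV5 and A549-ZNF300 cells was hybridised to Affymetrix Human U133 Plus 2.0 arrays, 1 per condition. The values deposited by the authors were normalized log2 signals of 54675 probe sets. The submitters' processing notes name MAS5 and affy, the methods SCAN/UPC, and which made these values is not given in the sources used here. A second deposited table held the same log2 signals for 8187 probe sets, with other columns of detection calls and of the authors' own fold changes. The calls are quoted in the results, and the fold changes were not used.

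Signals were used as deposited, with Python 3.11.15, pandas 2.3.3 and numpy 2.4.6. Probe sets were named from the array annotation, and 41097 named 1 gene. The calling steps were tested on simulated data. Precision is limited by the number of arrays, 1 per condition, which allowed no test. Members, gene lists and alternatives were chosen with earlier results of these data known. Named genes were the 10 members, ZNF300, the 3 genes of each list with the largest ratios, known partners and regulators, and chromosome neighbours of fibrinogen genes and SERPINA1. Other neighbours, undetected genes, and further list and marker genes were named after their values were seen. Promoters matched 9 of the 10 genes, in 11 windows, and gene order came from RefSeq (GRCh38.p14).

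Alternatives were other scalings, filters, probe set choices, an offset of 16 and thresholds of 1.5-fold and 3-fold. Over 6607 genes with several detected probe sets, the log2 ratios within a gene had a median SD of 0.35.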

Additional observations from a re-analysis of the deposited data

How the results depend on the processing

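Among the 9 detected genes, no log2 ratio changed sign under any scaling, filter, probe set choice or offset tried. This could hardly have come out otherwise, since all probe sets of each of these genes had one sign and scalings moved ratios little. FGA and FGG had values under 8 settings and F5 under 7, beside 10 for F3, because some filters left them out. SERPINA1 was not detected and had none to compare. F3 (-2.34 to -2.23) and PROS1 (-1.54 to -1.42), with 1 probe set each, moved least. The count of members at least 2-fold higher, 5, was 3 of 7 where the 75th percentile had to be reached, 2 of 6 with the array median required in both arrays and 3 of 5 when _x_at and _s_at probe sets were left out, against 11.6%, 9.31% and 14.8% of all genes. The lower count of 3 was 1 of 9 at 3-fold, against 7.59% of all genes. F5 fell to 0.24 with dim signals raised and to 0.40 with no filter, and TFPI2 ran from 0.61 to 1.79. Other clotting genes higher (5) were 9 with no filter, 2 under either stricter filter, 3 with dim signals raised, 8 at 1.5-fold and 2 at 3-fold. Those lower (2) were 6 with no filter, 0 without _x_at and _s_at probe sets and 1 at 3-fold. Liver-secreted genes higher (4) were 7 with no filter, 1 at the 75th percentile, 0 with both arrays required and 2 without _x_at and _s_at probe sets. Those lower (5) were 1 at the 75th percentile, 3 with both arrays required and 3 with dim signals raised. The other clotting genes counted were 39 with no filter, 16 at the 75th percentile and 17 with both arrays required. For liver-secreted genes these were 27, 2 and 6. Without _x_at and _s_at probe sets the 2 lists had 15 and 9 genes. The shares of all genes higher and lower were 17.0% and 19.5% with no filter and 11.6% and 12.5% at the 75th percentile. They were 9.31% and 11.6% with both arrays required, and 14.8% and 16.4% without _x_at and _s_at probe sets. With dim signals raised they were 10.3% and 12.1%, at 1.5-fold 22.5% and 26.5%, and at 3-fold 7.64% and 7.59%. Filters change which genes are counted, and other causes were not tested. The array medians differed by -0.11 on the log2 scale. No paired analysis was possible because each condition had 1 array, so none could be left out. Signals below the array median limit the ratios of FGA, FGG, F5 and SERPINA1.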

Other observations

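Relatives of fibrinogen, which share its globular domain, were read as well. Of 8 genes listed, 4 were detected, 2 at least 2-fold higher and 1 lower in A549-ZNF300, or 1 and 1 with dim signals raised, where 29.0% of all detected genes were 2-fold or more apart as deposited. FGL1, a liver-secreted fibrinogen-like protein gene, had log2 signals of 4.69 and 9.98 in the order A549-LV5, A549-ZNF300, and its log2 ratio was 5.29, or 3.84 with the dim signal raised to the array median. FIBCD1, a membrane receptor gene with a fibrinogen domain, had 3.21 and 6.61, and 0.47 as a log2 ratio with the dim signal raised. ANGPTL4, a secreted inhibitor of lipoprotein lipase, had 11.33 and 8.55, a log2 ratio of -2.77, from signals above the median in both arrays. ANGPT1 had 5.73 and 6.39, and FGL2 and ANGPT2 were not detected. FGL1 therefore stood with the fibrinogen chains in its direction, and ANGPTL4 did not.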
